A study of Mus musculus with 14 samples.

Results

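Mouse embryonic fibroblasts (MEFs) were compared with neural stem cells grown from fetal brain (Brain-NSCs). Both groups came from 13.5 dpc fetuses that were ROSA26/OG2 double transgenic and heterozygous. ROSA26 is a neo/lacZ reporter locus, and OG2 is an Oct4-GFP transgene that reports pluripotency. Each group had 2 of the 14 Illumina MouseRef-8 v2 arrays of the study. The other arrays held ESCs and NSCs from other sources. The members were the 14197 of 25697 probes whose mean reached 7.7 (log2 signal) in MEFs or Brain-NSCs, and 13350 of them carry a gene symbol, for 9768 of the 16593 genes on the array. A value of 7.7 is about where the detection p-value of a probe reached 0.05. For each gene the text gives its brightest member probe by the mean of the 14 arrays. Other probes given for a gene are member probes too, unless stated. Of the 9768 genes, 7224 reached the level in both groups. A further 1402 entered through the MEF mean alone and 1142 through the Brain-NSC mean alone, so the rule itself made these genes differ and counts over lists below are descriptions. At the edge of the rule, Nom1 was just inside (means of 7.7002 in MEFs and 7.5421 in Brain-NSCs) and Ttbk2 just outside (7.6998 in MEFs and 7.2744 in Brain-NSCs).

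MEFs are mesenchymal cells of the fetus. In culture they spread on stress fibres and lay down collagen-rich matrix. Brain-NSCs resemble the radial glia of the fetal brain. They self-renew in medium with EGF and bFGF, carry the intermediate filament Nestin, and use Notch signals and SOX and OLIG transcription factors to hold back differentiation. Brain-NSCs were plated from neurospheres onto gelatin and expanded with N2 supplement, EGF, and bFGF, and the sources used here do not state the medium of the arrayed MEFs. Medium and cell type therefore cannot be told apart in any result below.

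The defining markers stood on the side of their labels. Of 11 measured fibroblast markers, 9 were higher in MEFs, while Lum and Postn, at 0.97 and 0.73, were not called. Of 9 measured neural stem cell markers, 7 were lower in MEFs. Pax6 and Msi1 were under 7.7 on all 4 arrays. Actb, a reference gene of the study, differed by 0.62 ± 0.09 (difference ± SE) and was not called.

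Genes were called at a limma adjusted p under 0.05 and a difference over 1 on the log2 scale, which is 2-fold. By this rule 1204 genes (12.3%) were higher and 1156 (11.8%) lower in MEFs, together 24.2% of member genes, and the median difference was -0.06. The largest adjusted p among called genes was 0.00259, and no gene past 2-fold missed the 0.05 threshold, so the 2-fold limit set the calls. No Brain-NSC array reached 7.7 for 357 of the higher genes and no MEF array for 204 of the lower genes. For a gene of this kind the text gives a bound, the mean of the brighter group over the level of 7.7, as at least N-fold. The bound was 2-fold or less for 72 of the 357 and 33 of the 204, and with values under 7.7 set to 7.7 the counts were 1129 higher and 1121 lower genes. Differences over 16-fold were seen in 95 higher and 28 lower genes. The 2 arrays of a group lay close together, with a Pearson correlation of 0.998 for MEFs and 0.996 for Brain-NSCs across member probes, against a mean of 0.784 between the groups. The adjusted p alone would call 3392 genes (34.7%) higher and 3847 (39.4%) lower. The groups' arrays did not overlap for 90.6% of member genes. Replicates are not stated to be separate cultures, so p-values measure the spread between these arrays only. As in any bulk sample, fewer cells of a type and less RNA per cell cannot be told apart.

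The lowest signal on an array was 79.8 to 96.2 on the MEF arrays and 123.6 to 126.5 on the Brain-NSC arrays before normalization. Each group lay on one side, so this difference and the cell type cannot be told apart. With the signals scaled to the array median in place of quantile normalization, the median difference over all genes was 0.30. The counts were then 2174 higher and 677 lower genes, of which 76.3% were higher, against 51% in the deposited values.

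**Figure D1:**
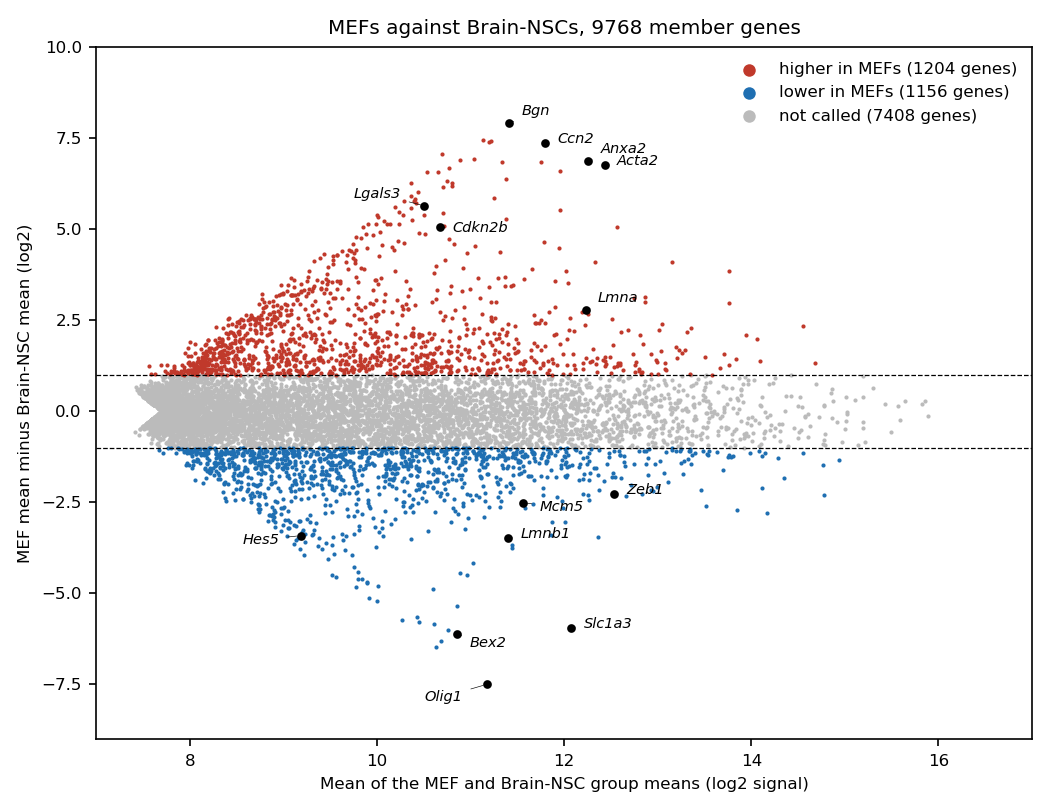
Difference between the MEF and Brain-NSC means (y axis, log2) against the mean of both groups (x axis, log2 signal) for 9768 genes, 1 point per gene. Red points are the 1204 genes higher in MEFs, blue points the 1156 lower genes, grey points were not called, black points are named genes, and dashed lines mark 2-fold; Bgn lies at 7.90 and Olig1 at -7.49.

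Genes of collagen-rich matrix were far higher in MEFs. Of 24 collagen genes 14 were higher and none was lower, with a median difference of 1.83. Col1a1, a chain of type I collagen, had 14.94 and 14.94 on the MEF arrays, against 7.41 and 7.60 on the Brain-NSC arrays. Col3a1 of type III collagen had 11.87 and 12.22 in MEFs and 7.55 and 7.34 in Brain-NSCs. Neither gene reached 7.7 on a Brain-NSC array, so the difference is given as a bound: at least 151-fold higher for Col1a1 and at least 20.3-fold higher for Col3a1. A second Col3a1 probe gave 0.38 and was not called. The basement membrane collagens Col4a1 (5.51 ± 0.10) and Col4a2 (5.85 ± 0.11) were measured in both groups and were also higher, as were Col6a1 (4.55) and Col7a1 (5.13), the anchoring fibril collagen. The 10 collagens not called lay between -0.26 and 0.64. With a filter like that of the methods, which keeps probes at 7.7 on 7 or more of the 14 arrays and so drops genes seen in MEFs alone, 9 collagens were higher.

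Genes of collagen processing were higher in 18 of 25 cases and lower in none. Lox, the lysyl oxidase that cross-links collagen and elastin, read 14.97 and 14.80 on the MEF arrays, against 7.52 and 7.49 on the Brain-NSC arrays, at least 145-fold higher in MEFs. Its relatives Loxl1 and Loxl2 were at least 74.1-fold and at least 13.9-fold higher. The prolyl 4-hydroxylase subunit P4ha2 was measured in both groups and differed by 2.63 ± 0.10.

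Proteoglycans were 9 higher and 3 lower of 26. Bgn, the small leucine-rich proteoglycan biglycan, had 15.39 and 15.33 in MEFs and 7.34 and 7.58 in Brain-NSCs. This was the largest difference in deposited values of any member gene. With both Brain-NSC arrays under 7.7 its size is known only as a bound, at least 202-fold higher in MEFs. Dcn (decorin) was at least 31.6-fold higher. The 3 lower genes were proteoglycans of the brain, and no MEF array reached 7.7 for any of them. Bcan (brevican) had 7.26 and 7.31 on the MEF arrays, against 11.90 and 11.78 on the Brain-NSC arrays, at least 17.6-fold lower. Ncan (neurocan) was at least 16.7-fold lower and Cspg5 (neuroglycan C) at least 11.7-fold lower.

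Of 33 glycoproteins and laminins 20 were higher and 2 lower. Fbln2 (fibulin 2), at 15.09 and 15.26 in MEFs and 8.39 and 8.29 in Brain-NSCs, was 114-fold higher, and its 2 other probes gave 2.37 and 4.71. Thbs2 (thrombospondin 2) was at least 111-fold higher and Nid1 (nidogen 1) differed by 5.26. Lamc1, the laminin gamma 1 chain, and Smoc1 were lower (-1.39 and -3.17), and the Lamc1 call was lost under scaling by array medians (-0.80). Of 29 matrix proteases and their inhibitors 20 rose and 2 fell. Among those that rose was Mmp14, the membrane-anchored collagenase, at 14.07 and 14.16 on the MEF arrays, against 7.38 and 7.47 on the Brain-NSC arrays, at least 85.1-fold higher. Serpinf1 (PEDF) differed by 6.37, Mmp2 (gelatinase A) by 4.61, and the inhibitors Timp1 and Timp3 by 3.95 and 3.65. Timp4 was at least 5.93-fold lower. Thy1, a surface glycoprotein of fibroblasts, was at least 142-fold higher and the receptor Pdgfrb at least 8.46-fold higher.

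**Figure D2:**
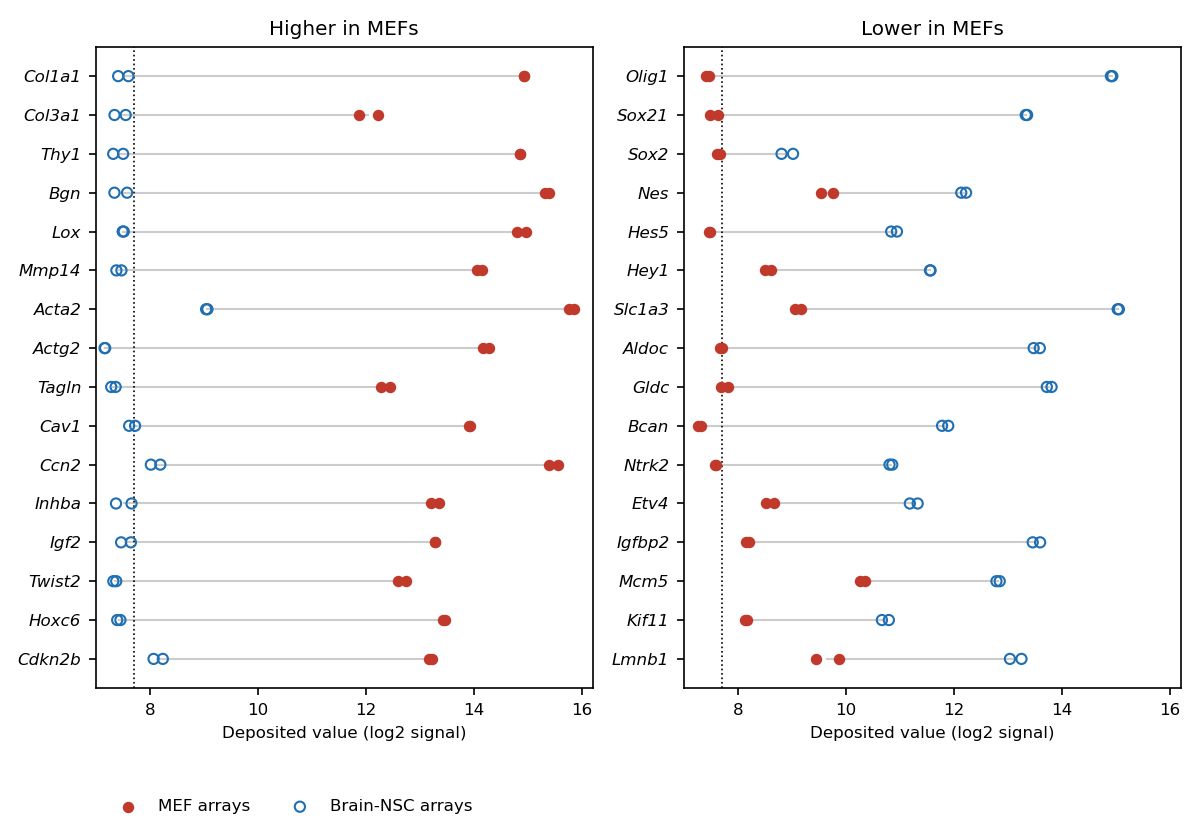
Deposited values (x axis, log2 signal) of 16 genes higher in MEFs (left panel) and 16 lower genes (right panel), with 1 filled red point per MEF array and 1 open blue point per Brain-NSC array; the dotted line is 7.7. All are called genes, and the arrays of the groups do not overlap for any of the 2360 called genes or for 90.6% of member genes. The lack of overlap here thus follows from the choice of genes. Bgn had 15.39 and 15.33 in MEFs and Olig1 7.46 and 7.40.

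Contractile genes were also far higher in MEFs. Of 29 genes of the actin cytoskeleton 21 were higher and none lower, with a median difference of 2.03. Acta2, which encodes alpha smooth muscle actin, had 15.86 and 15.76 on the MEF arrays, against 9.07 and 9.04 on the Brain-NSC arrays. It was 108-fold higher (6.76 ± 0.10, adjusted p = 3.9e-23 by limma), and its 3 other probes gave 6.04 or more. Actg2 (enteric smooth muscle actin) read 14.17 and 14.29 in MEFs and 7.17 and 7.16 in Brain-NSCs. It was at least 92.3-fold higher, tropomyosin 2 (Tpm2) at least 48.8-fold higher, and transgelin (Tagln) at least 25.5-fold higher, with no Brain-NSC array at the level for any of the 3. A second Tpm2 probe gave 0.55. Actn1 (alpha-actinin), which cross-links stress fibres, differed by 4.48 ± 0.10. Actin genes are close in sequence, and whether their probes can tell them apart was not tested. Of 15 measured markers of smooth muscle and pericytes, 10 reached 7.7 on both MEF arrays and 6 on both Brain-NSC arrays, and their mean level was 9.52 to 9.53 in MEFs and 7.98 to 8.03 in Brain-NSCs. Myh11, the smooth muscle myosin, was at least 3.09-fold higher, while Des (desmin) was not called (0.35) and Rgs5 was under 7.7 on all 4 arrays. The part of such cells in the contractile values was not tested.

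Serum response factor drives many contractile genes through a short motif, the CArG box, which is a pair of Cs, a run of A or T, and a pair of Gs. Srf itself was not called (11.24 and 11.19 in MEFs and 10.91 and 10.91 in Brain-NSCs, difference 0.30). RefSeq promoter windows (GRCm38.p6, 250 bases before to 50 after each start) were found for 18 of the 21 higher genes, and genes with several starts have several windows. A CArG box without mismatch, on either strand, was in 5 of their 21 windows (23.8%), against 1.63% of all 32851 windows. Over the whole contractile list, with genes not called, it was in 7 of 30 windows (23.3%). The motif was thus about as frequent over the list as among its higher genes. The list includes the 21 windows of those genes, so the shares cannot show whether the motif is particular to them. Fhl2, a LIM protein of stress fibres, was at least 24.6-fold higher and has a match 31 bases before one of its starts and 96 before another. Cnn2 (calponin 2) differed by 3.20 and has a match 56 bases before its start. The Acta2 window holds no match without mismatch. The 250 bases before the Fhl2 start (chr1:43163962-43164211, minus strand) and the Cnn2 start (chr10:79988350-79988599, plus strand) are shown with the motif in capitals, as examples of higher genes that carry it:
Fhl2: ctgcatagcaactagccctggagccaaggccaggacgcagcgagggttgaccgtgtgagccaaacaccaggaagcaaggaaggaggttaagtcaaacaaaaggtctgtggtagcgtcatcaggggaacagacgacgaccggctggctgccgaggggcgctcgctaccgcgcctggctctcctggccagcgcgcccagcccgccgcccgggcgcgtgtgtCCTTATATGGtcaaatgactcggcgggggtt
Cnn2: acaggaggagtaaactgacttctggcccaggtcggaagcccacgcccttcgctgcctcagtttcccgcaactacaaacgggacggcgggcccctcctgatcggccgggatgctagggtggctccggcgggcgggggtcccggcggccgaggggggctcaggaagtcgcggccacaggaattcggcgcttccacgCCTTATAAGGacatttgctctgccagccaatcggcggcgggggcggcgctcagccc

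Genes of membrane scaffolds, annexins, and S100 proteins were 21 higher and 1 lower of 26, with a median difference of 2.90. Anxa2 (annexin A2), at 15.66 and 15.71 on the MEF arrays, against 8.87 and 8.77 on the Brain-NSC arrays, was 116-fold higher, and Anxa3 114-fold. Cav1, the coat protein of caveolae, read 13.93 and 13.92 in MEFs and 7.73 and 7.61 in Brain-NSCs and differed by 6.25 ± 0.10. Its partner Cav2 was the lower gene, with 8.11 and 8.20 in MEFs and 9.96 and 9.98 in Brain-NSCs. Lgals3 (galectin 3) was at least 49.4-fold higher and S100a6 at least 31.8-fold higher.

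Of 16 integrin genes 6 were higher and 1 lower. Itga11, a collagen-binding integrin subunit, had 13.92 and 13.96 on the MEF arrays, against 7.34 and 7.38 on the Brain-NSC arrays, at least 75.4-fold higher, with other probes at 0.45 and 4.28. Itgb5 and Itga5 were higher as well (3.67 and 2.11), and Itga9 was lower (-1.39). Of 32 cadherins and other adhesion genes 7 were higher and 12 lower. P-cadherin (Cdh3) was at least 11-fold higher, and 1 of its 3 other probes was not called (0.67). Among the lower ones were neural adhesion genes. Astn1 (astrotactin, for migration of neurons along glia) read 7.59 and 7.51 in MEFs and 12.23 and 12.24 in Brain-NSCs, at least 23.2-fold lower. Ctnnd2 (delta-catenin) and Nrcam differed by -3.80 and -3.16, and other Ctnnd2 probes gave -1.05 and -1.38.

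Signalling genes of the TGF-beta family were higher in 21 of 38 cases and lower in none, with a median difference of 1.06. The ligands Tgfb2 and Tgfb3 differed by 1.71 and 3.37. Tgfb1 was called, but no Brain-NSC array reached 7.7, and its bound of at least 1.83-fold higher lies under the 2-fold limit. Of the receptors, Tgfbr2 differed by 3.44 ± 0.13 (second probe 0.44, not called), while Tgfbr1, at 11.20 and 11.09 in MEFs and 11.56 and 11.81 in Brain-NSCs, differed by -0.54, under the 2-fold limit (adjusted p = 0.0002 by limma), and by 0.10 under scaling by array medians. Ccn2, which encodes connective tissue growth factor and is a known TGF-beta and YAP target, had 15.56 and 15.39 on the MEF arrays, against 8.02 and 8.19 on the Brain-NSC arrays. At 165-fold (7.37 ± 0.10, adjusted p = 2.1e-23 by limma) this was the largest rise among genes whose mean reached 7.7 in both groups. Inhba, the subunit of activin A, was at least 47.8-fold higher, and Grem1, a BMP antagonist, at least 15-fold higher. The Tgfb1 call was also lost without Brain-NSC replicate 2 (0.99).

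Insulin-like growth factor genes changed in both directions, 9 higher and 3 lower of 16. The fetal growth factor Igf2 had 13.28 and 13.28 on the MEF arrays, against 7.65 and 7.47 on the Brain-NSC arrays, at least 48-fold higher. Igf2bp3, an RNA-binding protein named for its Igf2 target, was at least 18.6-fold higher. Binding proteins moved apart: Igfbp7 was 97.6-fold higher, and Igfbp2, at 8.15 and 8.20 in MEFs and 13.46 and 13.60 in Brain-NSCs, was 40.9-fold lower, with Igfbp3 5.7-fold lower. Igf2 is imprinted, as is its clearance receptor Igf2r (2.47). Of 20 imprinted genes 9 were higher, among them the growth suppressors Grb10 (at least 99.5-fold higher) and Cdkn1c (9.85-fold higher). Mest (12.7-fold lower), Nnat (no MEF array at 7.7), and Mkrn3 (-1.95) were lower. The 3 lower genes are known as expressed from the paternal copy, and the higher ones include both paternally expressed genes such as Igf2 and Ndn (3.63) and maternally expressed ones such as Cdkn1c.

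Among growth factor receptors and their feedback genes 15 were higher and 9 lower of 37. The PDGF receptor Pdgfra was at least 17.7-fold higher and the receptor tyrosine kinase Axl differed by 4.10. Ntrk2 (TrkB), the BDNF receptor, read 7.59 and 7.57 in MEFs and 10.86 and 10.81 in Brain-NSCs, at least 8.78-fold lower, with a second probe at -0.86. Egfr, the receptor of EGF, stayed under the 2-fold limit (-0.68, adjusted p = 3.5e-06 by limma). Genes known to be induced by FGF and ERK signals went both ways. Etv4, an ETS factor, had 8.67 and 8.52 on the MEF arrays, against 11.33 and 11.19 on the Brain-NSC arrays, 6.33-fold lower. Etv5 differed by -2.10 and Etv1 was at least 2.49-fold lower, and the feedback inhibitors Dusp6, Spred1, and Spry4 differed by -1.75, -1.24, and -1.11. Dusp4, another feedback phosphatase of ERK, was higher, with 10.66 and 10.55 in MEFs and 8.94 and 8.90 in Brain-NSCs (difference 1.69). Under scaling by array medians Spred1 (-0.66) and Spry4 (-0.89) were no longer called. The medium of the Brain-NSCs held bFGF, and its part in these values was not tested.

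Wnt genes were 6 higher (21.4%) and 4 lower (14.3%) of 28, against 12.3% and 11.8% of all member genes. With the filter on 7 arrays 2 were higher. The neural ligands Wnt7a and Wnt7b were at least 10.4-fold and at least 5.36-fold lower, and Axin2, a target of beta-catenin, was 3.58-fold lower. Dkk3 was at least 15.6-fold higher, and the receptor Fzd7 differed by 2.21. Of 36 axon guidance genes 13 were higher, led by Slit2 (4.11), Efna5 (3.84, second probe 0.42), and Nrp1 (3.10), and 4 lower. Sema6d was at least 7.18-fold lower, while its 2 other probes, at -0.32 and -0.65, were not called.

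**Figure D3:**
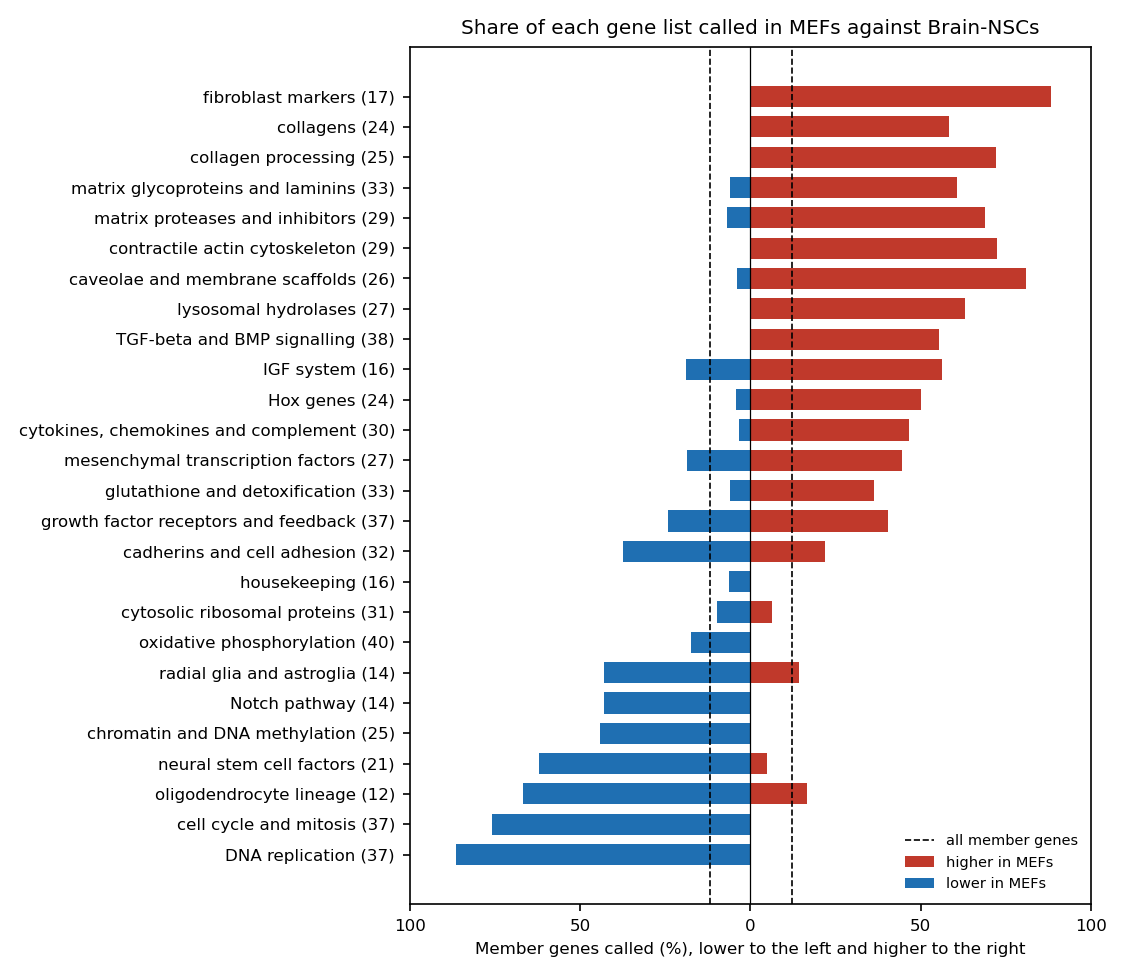
Share of the member genes of 26 gene lists called higher in MEFs (red bars, to the right) or lower (blue bars, to the left), in percent, with the number of member genes in parentheses; dashed lines are the shares over all member genes, 12.3% higher and 11.8% lower. Fibroblast and matrix lists reach far to the right, and DNA replication far to the left, at 86.5% lower, against 88.2% higher for the fibroblast markers.

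Transcription factors of mesenchyme were higher in 12 of 27 cases and lower in 5, and with the filter on 7 arrays 6 were higher. Twist2, a bHLH factor of dermis and bone precursors, had 12.60 and 12.75 on the MEF arrays, against 7.32 and 7.38 on the Brain-NSC arrays, at least 31.5-fold higher. Hic1 was at least 6.14-fold higher, Snai1 at least 5-fold higher, and Prrx1 differed by 1.97. Twist1 was measured in both groups, with 10.34 and 10.39 in MEFs and 9.22 and 9.26 in Brain-NSCs. Zeb1, known from epithelial-mesenchymal transition, had 11.38 and 11.42 in MEFs and 13.76 and 13.57 in Brain-NSCs. It was 4.8-fold lower in MEFs (-2.26 ± 0.09, adjusted p = 9.7e-16 by limma), and its paralog Zeb2 was higher (1.55). Nr2f1 (COUP-TFI), a factor of both brain and mesenchyme, was 8.18-fold lower.

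Hox genes mark position along the trunk and are silent in fore- and midbrain. In MEFs 12 of 24 were higher and 1 lower, and 18 of the 24 had no Brain-NSC array at 7.7. With the filter on 7 arrays 1 was higher. Hoxc6 had 13.42 and 13.47 on the MEF arrays, against 7.39 and 7.45 on the Brain-NSC arrays, at least 53.7-fold higher. Hoxb4 and Hoxc9 were at least 8.03-fold and at least 10.2-fold higher. Hoxa5 was the 1 gene called lower, with 9.54 and 9.58 in MEFs and 11.78 and 11.83 in Brain-NSCs, 4.74-fold lower. In iPS-cNSCs the Hoxa5 group mean was 8.41, so MEFs were higher than that NSC group by 1.15. In all, 5 of the 24 had a negative difference against Brain-NSCs. Among them Hoxa2 (-0.85) had 8.59 and 8.72 in Brain-NSCs and was not called. Hoxa7, also not called (0.57), had 8.63 and 8.60 in Brain-NSCs. Among 10 patterning genes of fore- and midbrain, Otx1 was at least 7.8-fold lower, En2 at least 6.65-fold lower, while Lhx2 was called lower with a bound of at least 1.65-fold, under the 2-fold limit. En1, which also patterns limb ectoderm and dermis, was higher (2.77).

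Neural stem cell factors were lower in 13 of 21 cases and higher in 1, with a median difference of -1.71, against -0.06 over all genes. Olig1, the bHLH factor of oligodendrocyte and neural progenitors, had 7.46 and 7.40 on the MEF arrays, against 14.91 and 14.94 on the Brain-NSC arrays. It was at least 149-fold lower. This was the largest fall in deposited values of any member gene, although its size is known only as a bound. Sox21, a SOX factor of neural progenitors, read 7.48 and 7.63 in MEFs and 13.33 and 13.36 in Brain-NSCs. It was at least 50.1-fold lower, and its other probes gave -0.67 and -1.93. Sox9 and Sox5 differed by -1.71 and -1.86 (second Sox5 probe -0.47, not called), and Sox2 and Sox8 were at least 2.32-fold and at least 7.9-fold lower, so that 5 of 7 SOX genes were lower. Nes (Nestin) kept a signal in MEFs, at 9.77 and 9.54 on the MEF arrays, against 12.23 and 12.14 on the Brain-NSC arrays, 5.77-fold lower. Fabp7, the brain lipid-binding protein of radial glia, was at least 5.6-fold lower. The exception was Id4, an inhibitor of bHLH factors, which was 4.85-fold higher.

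Of 14 Notch pathway genes 6 were lower and none higher. Hes5, the Notch target that holds back neuronal differentiation, had 7.47 and 7.49 on the MEF arrays, against 10.84 and 10.95 on the Brain-NSC arrays, at least 9.14-fold lower. Of further targets, Hey1 differed by -3.02 and Nrarp was at least 4.6-fold lower. The receptor Notch1 differed by -1.78 and the ligand Dll1 by -1.13 (-0.87 and not called under scaling by array medians). Hes1, a Notch target in many tissues, read 10.69 and 10.74 in MEFs and 10.36 and 10.42 in Brain-NSCs and stayed under the 2-fold limit (0.33). The Hes5 promoter (RefSeq, chr4:154960673-154960922, plus strand) holds 2 matches to the motif of RBPJ, the DNA-binding partner of Notch, searched as CGTGGGAA and TGTGGGAA on both strands. Of all windows 2.57% hold a match. Among lower Notch pathway genes 1 of 7 windows holds a match, that of Hes5 itself, and over the whole list 2 of 13. The Hes5 matches begin 226 and 84 bases before the gene's start. The window is shown with both in capitals:
Hes5: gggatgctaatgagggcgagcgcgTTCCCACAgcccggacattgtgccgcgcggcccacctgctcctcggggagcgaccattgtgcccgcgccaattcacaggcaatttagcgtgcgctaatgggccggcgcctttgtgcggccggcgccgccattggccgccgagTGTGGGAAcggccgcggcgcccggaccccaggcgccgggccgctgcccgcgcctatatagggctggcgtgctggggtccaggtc

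Of 14 genes of radial glia and astroglia 6 were lower and 2 higher. Slc1a3, the glutamate transporter GLAST, had 9.17 and 9.05 on the MEF arrays, against 15.04 and 15.06 on the Brain-NSC arrays. It was 61.4-fold lower (-5.94 ± 0.08, adjusted p = 2.1e-23 by limma). Aldoc, the brain aldolase, was 57.6-fold lower, and Gldc, the glycine decarboxylase of one-carbon metabolism, 64.5-fold lower. Metallothionein 3 (Mt3) was at least 8.27-fold lower. In the oligodendrocyte lineage 8 of 12 genes were lower, with Bcas1 at 7.51 and 7.54 in MEFs and 13.75 and 13.92 in Brain-NSCs, at least 70.3-fold lower, and Nkx2-2 at least 11.2-fold lower. Pdgfra, which is also a fibroblast gene, and Mbp (at least 2.34-fold higher, but not called as the mean of its probes, at 0.89) were the higher genes of this list. Gja1 (connexin 43), expressed in astroglia and in fibroblasts, was 11.9-fold higher in MEFs. Vim was higher (13.76 and 13.55 in MEFs and 12.10 and 12.94 in Brain-NSCs), and this call was lost without Brain-NSC replicate 1 (0.71).

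Genes of neurons were 4 lower and 1 higher of 10. Map2, a dendritic microtubule protein, differed by -2.94, and its other probes by -1.14 and -1.70. Stmn2, a microtubule regulator of growing axons, was at least 4.24-fold higher. Dcx was 7.96 and 8.09 in MEFs and 7.36 and 7.46 in Brain-NSCs, a difference of 0.61 that was not called, and Tubb3 was under 7.7 on all 4 arrays. Rtn1, a reticulon of neural and endocrine cells, fell with no MEF array at the level for its brightest probe (at least 47.1-fold lower). Other Rtn1 probes gave -1.25, -1.55, and -4.54, and the last of them did reach the level in MEFs, at 8.24 and 8.17. The potassium channel gene Kcnc1 also had no MEF array at the level (at least 43.1-fold lower). Nup210, a nuclear pore protein, was at least 71.9-fold lower. Bex2, a small X-linked protein gene, had 7.83 and 7.76 in MEFs and 13.95 and 13.90 in Brain-NSCs and was 69.9-fold lower, although a second Bex2 probe gave 0.06 and another -4.84.

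**Figure D4:**
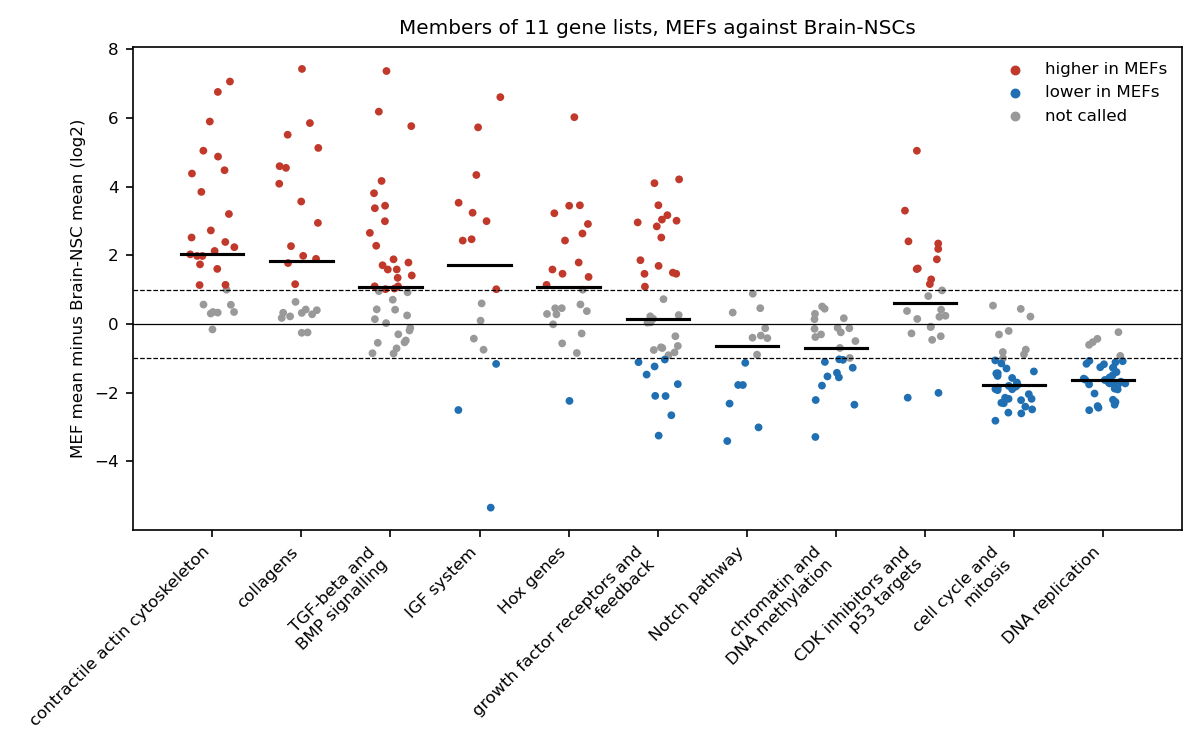
Difference between MEFs and Brain-NSCs (y axis, log2) for each member gene of 11 lists (x axis), 1 point per gene with random sideways spread; red points are higher in MEFs, blue points lower, grey points not called, black bars list medians, and dashed lines 2-fold. All 37 DNA replication genes lie below 0, with a median of -1.64, and the contractile genes have a median of 2.03.

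Genes of DNA replication and mitosis were lower in MEFs. Of 37 DNA replication genes 32 were lower (86.5%, against 11.8% of all member genes), and all 37 had a negative difference, with a median of -1.64. Mcm5, a subunit of the replicative helicase, had 10.35 and 10.26 on the MEF arrays, against 12.79 and 12.85 on the Brain-NSC arrays. It was 5.71-fold lower (-2.51 ± 0.10, adjusted p = 9.2e-16 by limma). Tk1 (thymidine kinase 1) and Uhrf1, which guides DNA methylation after replication, were 5.44-fold and 5.11-fold lower. Pcna, the sliding clamp, read 8.11 and 8.26 in MEFs and 9.60 and 9.78 in Brain-NSCs, also lower. Rrm2, a ribonucleotide reductase subunit, was among the 5 not called (-0.24, and 0.34 under scaling by array medians), but a second Rrm2 probe was lower, at -1.78. The 2 other Tk1 probes gave -0.41 and -0.72.

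Of 37 genes of cell cycle and mitosis 28 were lower and none higher, with a median of -1.78. Nusap1, a spindle protein, was 7.07-fold lower, with other probes at -0.66 and -0.77, not called. Top2a (topoisomerase 2 alpha) was 6.1-fold lower and Cdk1, the mitotic kinase, 4.92-fold lower. Kif11, the spindle motor Eg5, had 8.16 and 8.13 on the MEF arrays, against 10.67 and 10.80 on the Brain-NSC arrays. The D cyclins, which act at the G1 step, were not called. Ccnd1 had 13.80 and 13.80 in MEFs and 14.09 and 14.13 in Brain-NSCs, with other probes at -0.77 and -1.26 and a difference of 0.40 under scaling by array medians, and Ccnd2 and Ccnd3 differed by 0.53 and 0.44. Under scaling by array medians 24 of the replication genes and 24 of the cell cycle genes were lower.

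Promoter motifs are known for both groups. E2F factors bind promoters of S-phase genes, and their motif was searched as TTTCCCGC, TTTCGCGC, TTTGCCGC, and TTTGGCGC on both strands. A match was in 9 of 35 windows of lower replication genes (25.7%), against 2.26% of all windows and 3.67% of windows of member genes. Over the whole replication list it was in 11 of 41 windows (26.8%). Those windows include the 35 of the lower genes, so the shares cannot show whether the motif is particular to lower genes. The CHR element, TTTGAA on both strands, is the DREAM and B-MYB site of G2 and M genes. It was in 19 of 24 windows of lower cell cycle genes (79.2%), against 17.9% of all windows. Over the whole cell cycle list it was in 21 of 31 windows (67.7%). A match within 40 bases of the start was in 19 of the 24 windows (79.2%), against 4.2% of all windows (the distance was chosen after the positions were seen). Among lower replication genes the CHR share was 14.3%, and among lower cell cycle genes the E2F share was 8.33%. RefSeq windows were found for 28 of the 32 and 23 of the 28 lower genes. The 250 bases before the start are shown for a gene of each group. Mcm5 (chr8:75109259-75109508, plus strand) is shown with its E2F matches in capitals, a pair that overlap on opposite strands from 153 bases before the start. Kif11 (chr19:37376132-37376381, plus strand) and Cdk1 (chr10:69352913-69353162, minus strand) are shown with their CHR matches, which start 19 bases before the Kif11 start and 71 and 15 before the Cdk1 start:
Mcm5: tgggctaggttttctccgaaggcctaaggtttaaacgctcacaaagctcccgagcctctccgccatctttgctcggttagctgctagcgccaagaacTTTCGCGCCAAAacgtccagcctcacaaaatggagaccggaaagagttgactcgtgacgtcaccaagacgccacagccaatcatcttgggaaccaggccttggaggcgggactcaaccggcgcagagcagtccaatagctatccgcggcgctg
Kif11: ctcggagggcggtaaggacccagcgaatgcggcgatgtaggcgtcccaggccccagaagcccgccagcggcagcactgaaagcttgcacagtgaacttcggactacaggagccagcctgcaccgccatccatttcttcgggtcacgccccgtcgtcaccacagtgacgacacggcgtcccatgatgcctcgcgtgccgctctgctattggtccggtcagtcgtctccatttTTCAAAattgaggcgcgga
Cdk1: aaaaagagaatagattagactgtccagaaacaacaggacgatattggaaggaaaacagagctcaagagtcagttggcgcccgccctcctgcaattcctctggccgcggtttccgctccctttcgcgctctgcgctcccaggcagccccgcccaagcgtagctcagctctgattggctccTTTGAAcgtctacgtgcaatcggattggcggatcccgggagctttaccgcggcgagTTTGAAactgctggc

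Inhibitors of the cell cycle and p53 targets were 10 higher and 2 lower of 24. Cdkn2b (p15), an inhibitor of CDK4 and CDK6 that TGF-beta is known to induce, had 13.17 and 13.23 on the MEF arrays, against 8.24 and 8.07 on the Brain-NSC arrays, 33-fold higher. Cdkn2a (p16 and p19ARF) was 3.06-fold higher, with a second probe at 0.54. The p53 target Mdm2 differed by 2.19, and 1 of its 2 other probes was not called (0.36). Cdkn1a (p21) was not called (13.30 and 13.31 in MEFs and 13.05 and 13.08 in Brain-NSCs), although 1 of its 2 other probes was higher, at 1.80. Cdkn2c (p18) was lower (-2.15), with a second probe at -0.28.

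Genes of the nuclear lamina went both ways. Lmna, for lamins A and C, had 13.61 and 13.62 on the MEF arrays, against 10.89 and 10.79 on the Brain-NSC arrays, 6.86-fold higher. Lmnb1, for lamin B1, read 9.44 and 9.88 in MEFs and 13.04 and 13.25 in Brain-NSCs and was 11.2-fold lower. A second Lmnb1 probe gave -1.04. Of 25 chromatin genes 11 were lower and none higher, among them Ezh2, the H3K27 methyltransferase (4.65-fold lower, second probe -0.87 and not called), and Sall2 (-3.29). Under scaling by array medians 7 chromatin genes were lower.

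Lysosomal hydrolases and their partners were higher in 17 of 27 cases and lower in none. Ctsk (cathepsin K), a collagen-degrading protease, had 13.01 and 12.99 on the MEF arrays, against 7.35 and 7.41 on the Brain-NSC arrays, at least 39.4-fold higher, and Hexa (hexosaminidase A) differed by 3.33. With iPS-cNSCs in place of Brain-NSCs 9 were higher. Cytokine, chemokine, and complement genes were higher in 14 of 30 cases, led by the chemokine Cxcl12 (12.34 and 12.43 in MEFs and 7.87 and 8.07 in Brain-NSCs, with 1 of 2 other probes at 0.88 and not called) and by Ccl7 (3.35). Of 14 measured macrophage and microglia markers 10 reached 7.7 on both MEF arrays and 2 on both Brain-NSC arrays. Their mean level was 8.25 to 8.26 in MEFs and 7.57 to 7.67 in Brain-NSCs. Of the 11 that are member genes 4 were higher in MEFs and 1 lower. Lyz2, among the higher ones, had 10.42 and 10.76 in MEFs and 7.35 and 7.37 in Brain-NSCs. The lower one was Cd14, with 7.96 and 7.90 in MEFs and 9.47 and 9.51 in Brain-NSCs. Ptprc (CD45) and Itgam were under 7.7 on all 4 arrays. The part of such cells in the lysosomal and cytokine values was not tested.

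Of 33 glutathione and detoxification genes 12 were higher, led by Gstm2 (4.17), and 2 lower. The next lists are to be read against 12.3% higher and 11.8% lower over all member genes. Of 28 cholesterol and fatty acid genes 1 was higher (3.57%) and 4 lower (14.3%). Of 24 glycolysis genes 5 were higher (20.8%) and 4 lower (16.7%). Under scaling by array medians none of the cholesterol and fatty acid list and 1 of the glycolysis list were lower. In oxidative phosphorylation 7 of 40 genes (17.5%) were lower and none higher, with Cyc1 (cytochrome c1) at -1.70, and 1 was lower under scaling by array medians, while 17 were lower against iPS-cNSCs. Among 31 cytosolic ribosomal protein genes 2 were higher (6.45%) and 3 lower (9.68%). Rpl23 was higher by 2.34, but 3 other probes of it gave -0.28, -0.09, and 0.18. Of 16 housekeeping genes Tfrc (transferrin receptor) was lower (-1.80) and none was higher, but under scaling by array medians 7 were higher. Interferon and antigen presentation genes were 4 higher (13.3%) and 3 lower (10%) of 30, near the 12.3% and 11.8% of all member genes, with 10 higher under that scaling. The stress-response genes Ddit3 (CHOP) and Chac1 were higher (2.96 and 2.27).

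Of the 4 reprogramming factors, Klf4 was 5.76-fold higher in MEFs (10.54 and 10.54 in MEFs and 7.94 and 8.08 in Brain-NSCs), and Sox2 was at least 2.32-fold lower. Pou5f1 (Oct4) and Myc were not called (-0.17 and -0.59). Esrrb, known from pluripotent cells, read 7.48 and 7.44 in MEFs and 9.85 and 9.83 in Brain-NSCs, at least 4.41-fold lower. Tbx3, which acts in pluripotent and other cells, was at least 3.38-fold higher, with other probes at 0.03 and 1.02, and Klf2 differed by 1.43.

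Some markers of other fetal tissues were measured in MEFs. Of 13 endothelial markers 4 reached 7.7 on both MEF arrays and 3 on both Brain-NSC arrays. Pecam1, Cdh5, and Tie1 were under 7.7 on all 4 arrays, and Flt1, a VEGF receptor, was 12.6-fold higher in MEFs (11.85 and 11.89 in MEFs and 8.23 and 8.20 in Brain-NSCs). Of 21 skeletal muscle markers 4 were at 7.7 on both MEF arrays and 1 on both Brain-NSC arrays. Acta1, the skeletal muscle actin, was at least 27.2-fold higher, and Tnnc1, a slow muscle and heart troponin, was called with a bound of at least 1.81-fold, under the 2-fold limit, while Myod1, Ckm, Mylpf, and Tnnt3 were under 7.7 on all 4. Of 10 adipocyte markers 3 were at 7.7 on both MEF arrays and 4 on both Brain-NSC arrays. Of the 5 that are member genes 3 were higher and 0 lower. Lpl (lipoprotein lipase) had 11.81 and 11.76 on the MEF arrays, against 7.85 and 7.88 on the Brain-NSC arrays, a difference of 3.92. Pparg was at least 2.04-fold higher. Zfp423 (7.37 and 7.32 in MEFs, 8.40 and 8.28 in Brain-NSCs) leaned the other way without being called. So did Lep (7.67 and 7.55 in MEFs, 7.92 and 8.12 in Brain-NSCs). Adipoq and Fabp4 were under 7.7 on all 4 arrays. Of 13 epithelial markers 5 reached 7.7 on both MEF arrays and 2 on both Brain-NSC arrays. The keratins Krt8 and Krt18 read 7.87 to 8.14 in MEFs and were under 7.7 in Brain-NSCs, without being called, and Krt5 and Krt14 were under 7.7 on all 4 arrays. Of 7 blood markers 1 reached 7.7 on both MEF arrays and none on both Brain-NSC arrays. The part of such cells in other results was not tested.

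The groups differed at sex-linked genes. Eif2s3y, on chromosome Y, had 11.58 and 11.60 on the MEF arrays, against 7.25 and 7.30 on the Brain-NSC arrays, and Kdm5d 8.82 and 9.11 in MEFs and 7.42 and 7.34 in Brain-NSCs. Xist, the X-inactivation RNA, was 7.58 and 7.53 in MEFs and 8.76 and 8.74 in Brain-NSCs, at least 2.07-fold lower in MEFs, with a second probe at -0.51. The labels do not give the sex of the fetuses, so for X- and Y-linked genes, Bgn and Bex2 among them, sex and cell type cannot be told apart.

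In the other NSC groups Col1a1 had group means between 7.35 and 7.51 and Lox between 7.41 and 7.55, all under 7.7. Olig1 lay between 14.91 and 15.53 there and Slc1a3 between 14.15 and 15.67, far above the MEF values. Some MEF genes varied among NSC groups: Thy1 lay between 8.09 and 12.64, Ccn2 between 7.66 and 12.11, and Anxa3 between 7.75 and 12.03. Mcm5 was between 12.59 and 13.23 in the other NSC groups and 13.92 in ESCs, also above the MEF values. ESCs, which were kept on MEF feeder layers, had 13.46 for Acta2 and 11.20 for Bgn. The part of feeder RNA in the ESC values was not tested. Across all probes iPS-cNSC arrays had a mean Spearman correlation of 0.866 with MEF arrays and 0.854 with Brain-NSC arrays. For the iPS-NSC lines and NED-NSCs these were 0.792 to 0.797 and 0.888 to 0.900. With iPS-cNSCs, whose arrays also had low lowest signals (83.7 to 84.4), as the comparison group 1111 genes were higher and 1061 lower in MEFs, and with NED-NSCs 1154 and 1189. All of these comparisons share the MEF arrays.

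**Figure D5:**
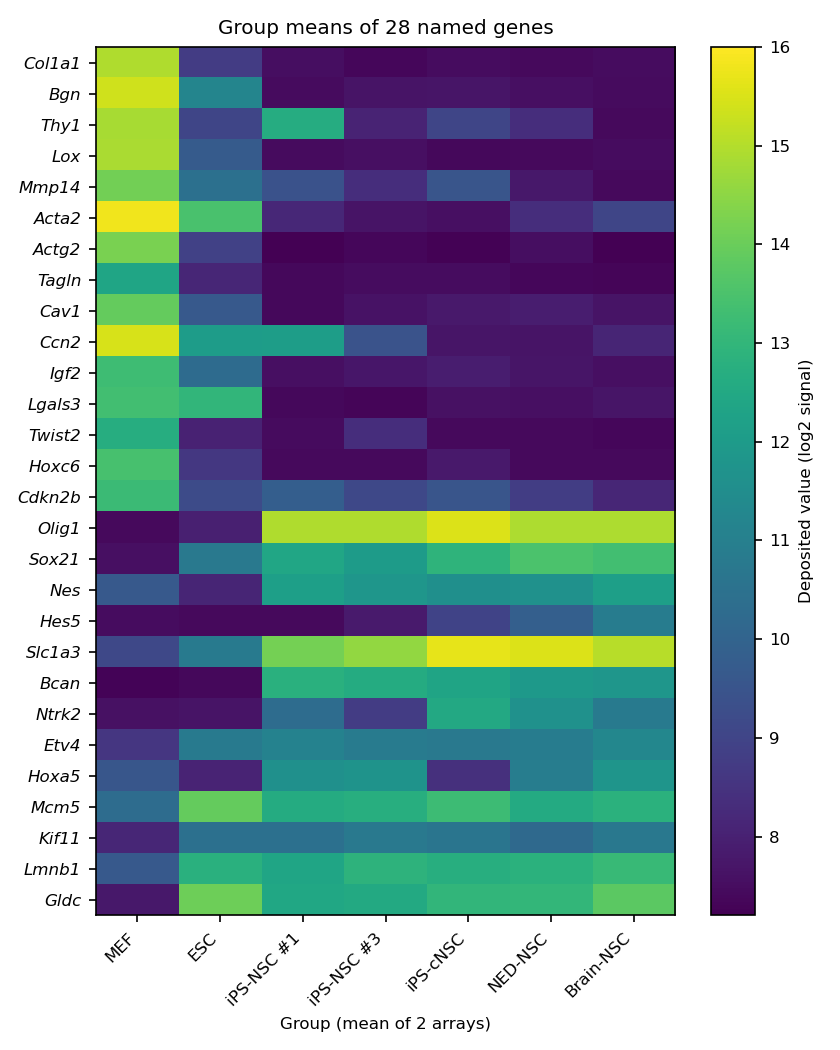
Mean deposited value (colour, log2 signal, 2 arrays per group) of 28 named genes (rows) in MEFs, ESCs, the other NSC groups, and Brain-NSCs (columns). The first 15 rows are brightest in MEFs and the last 13 are dimmest in MEFs or ESCs, with Hoxa5 in iPS-cNSCs (8.41) under its MEF mean of 9.56.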

How the data were processed

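Deposited log2 values of 14 arrays (25697 probes) were used as the authors made them. Signals were exported with GenomeStudio 2011.1, transformed to logs, and quantile normalized. The methods also name a filter on detection, which the deposited table does not carry, since it holds all probes, down to 6.82. Deposited intensity values before normalization, with a detection p-value for each probe, served for checks and alternatives. Its columns matched 10 of the 14 samples by name, and the remaining 8 columns were not used here. Depth has no counterpart on arrays, and 2 arrays per group limit the precision.

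limma 3.58.1 in R 4.3.3 fitted 1 mean for each of the 7 groups to all probes, with a mean-variance trend and Benjamini-Hochberg adjustment over all 25697 probes. A call needed both an adjusted p under 0.05 and a log2 difference over 1 in size. Where the dimmer group of a called gene had no array at 7.7, the text gives a bound against 7.7. On simulated data of this comparison (25697 probes), 21 of 50 planted 2-fold changes, 50 of 50 3-fold changes, and 0 of 25497 unchanged probes were called. Changes were planted only in probes whose Brain-NSC mean lay well above 7.7, so the simulation does not cover changes near that level.

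Members and gene lists were chosen with earlier results of these data known. Named genes were the largest changes, the leading members of each list (up to 6 called in each direction and 2 not called), cell type markers, and genes of the study's methods. Ccnd3, Cdk1, Cdkn2a, Cnn2, Igf2r, Itgam, Pcna, Rgs5, Spred1, Spry4, Srf, Tgfb1, Tgfb2, Tgfb3, Zeb2, Adipoq, Dusp4, Fabp4, Krt8, and Krt18 were chosen after their values were seen. Promoter sequences came from RefSeq (GRCm38.p6). The alternatives tried were other filters, normalizations, tests, probe rules, a replicate block, and arrays left out. The replicate numbers were not treated as pairs, since the deviations of same-numbered arrays correlated at 0.0537.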

Additional observations from a re-analysis of the deposited data

How the results depend on the processing

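The counts of 1204 higher and 1156 lower genes were the same with the 4 arrays alone, with member probes alone, without the variance trend, with the detection filter, with the local-pooled-error test of the methods (coded anew), and with the replicate number as a block. The replicate block gave 1204 higher and 1156 lower genes. Leaving out 1 array gave 1198 to 1209 higher and 1160 to 1185 lower genes. Background correction by neqc gave 2113 higher and 2176 lower genes, and signals scaled to the array median 2174 higher and 677 lower. The adjusted p alone called 3392 higher and 3847 lower genes, and limma's treat against 2-fold called 860 higher and 726 lower genes.

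The median difference of -0.06 was -0.11 at a level of 8.5, -0.0318 without a filter, -0.0461 with the filter on 7 arrays, -0.0745 with the detection filter, -0.10 with neqc, 0.30 with signals scaled to the array median, and -0.0542 with the mean of all member probes. Among alternatives chosen after seeing the data, it was -0.042 with values under 7.7 set to 7.7 (1129 higher and 1121 lower genes), -0.0041 against iPS-cNSCs, and -0.0341 against NED-NSCs. Against iPS-cNSCs the difference turned to 1.15 for Hoxa5, -0.21 for Gja1, 0.0268 for Xist, and 0.59 for Lamc1, and against NED-NSCs to 0.13 for Itga9. With values under 7.7 set to 7.7 the calls of Lhx2 (-0.72), Tgfb1 (0.87), and Tnnc1 (0.85) were lost. The causes of these shifts were not tested. Genes near the 7.7 level are limited by signal over background.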
